A study of Homo sapiens with 6 samples.

Results

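The histone genes of the table are the rows whose symbol carries a histone prefix, from the numbered H1, H2A, H2B, H3 and H4 gene clusters to the named variants. They were 89 of 35410 listed genes. Of these, 61 are replication-dependent genes (H1-1 to H1-5 and the H2AC, H2BC, H3C and H4C series), 12 are protein-coding variant genes (such as H1-10, H2AX, H2AZ1, H2AZ2, H3-3A, H3-3B and MACROH2A1), and 16 are pseudogenes or non-coding RNAs with a histone symbol. Their levels were compared between 3 biological replicates of SEM::EGR3, which carries an inducible EGR3 transgene, and 3 of SEM::mock, which carries the empty vector. Both lines are derivatives of SEM, an established human proB leukemia line with a KMT2A::AFF1 fusion, and both received doxycycline at 1 µg/mL for 48 h, so the controls were exposed to the inducer too. RNA was measured by MACE-Seq, which sequences the 3′ ends of polyadenylated transcripts.

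Replication-dependent histones are made while DNA is copied, and they package the new DNA. Their mRNAs are unlike all others in animal cells in that they normally carry no poly(A) tail. They end a few bases after a conserved stem-loop, which is bound by SLBP and cut by a complex that holds the U7 snRNP, and the mRNAs are degraded when replication stops. A method that starts from poly(A) tails therefore sees only the share of these mRNAs that was polyadenylated, and not their whole amount. Variant histones replace the canonical ones outside of replication, and their mRNAs are mostly polyadenylated like those of other genes.

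The stem-loops are shown first, because they are the element that sets this family apart. The sequences were read from GENCODE 29 transcripts (GRCh38) of 6 genes that differed between the lines and of H2AC11, which did not pass the test. The 16 bases of the stem-loop are in capitals, 6 base pairs around a loop of 4 bases, with 5 bases on either side in lower case.

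H2AC6 (chr6:26124664-26124689, plus strand): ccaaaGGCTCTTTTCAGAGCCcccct
H4C8 (chr6:26285126-26285151, minus strand): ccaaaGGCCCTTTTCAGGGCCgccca
H2BC8 (chr6:26216213-26216238, minus strand): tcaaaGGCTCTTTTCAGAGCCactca
H2AC18 (chr1:149842218-149842243, minus strand): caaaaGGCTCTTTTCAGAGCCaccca
H3C10 (chr6:27810511-27810536, plus strand): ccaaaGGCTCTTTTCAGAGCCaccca
H2AX (chr11:119094893-119094918, minus strand): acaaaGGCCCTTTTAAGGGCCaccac
H2AC11 (chr6:27133510-27133535, plus strand): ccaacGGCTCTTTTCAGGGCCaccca

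The pattern GGNNNTTNNNANNNCC with 6 base pairs was searched on the transcript strand after the stop codon, or over the whole transcript in genes without one. It was found in 31 of the 87 members that GENCODE 29 holds, namely 28 replication-dependent genes, the pseudogenes H2BC19P and H2BC20P and, as the only variant, H2AX. Anywhere in a transcript, it occurs in 492 of 58676 genes (0.839%). In 20 of the replication-dependent genes the annotated transcript runs on for at least 100 bases past the stem-loop. The distance was 1128 bases in H2AC6, 1655 in H4C8, 1059 in H2BC8 and 769 in H3C10. In 15 of the 20, one of the poly(A) signals AATAAA or ATTAAA lies within the last 50 bases of that transcript. H2AX had both ends too, with 1044 bases past the stem-loop and a poly(A) signal. In H2AC18 the transcript ends 35 bases after the stem-loop.

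The labels call the samples proB cells, and the marker genes did not match this in the libraries labelled SEM::mock. Of 12 B lineage markers, 9 were tested and all 9 were higher in SEM::EGR3. Their summed level was between 2.65 and 5.88 CPM (counts per 1000000 counts in tested genes, with normalised library sizes) in SEM::mock, and between 654 and 686 CPM in SEM::EGR3. No SEM::mock library held a count of EBF1 or of the KMT2A fusion target HOXA7, and PAX5 had 1 or 2 counts there. The 4 fusion targets HOXA7, HOXA9, HOXA10 and MEIS1 summed to 20.8 to 23.1 CPM in SEM::mock and 248 to 270 CPM in SEM::EGR3. All 4 were higher in SEM::EGR3. Transcripts of erythroid genes such as HBG2 and GATA1 were abundant in all 6 libraries, with a summed level of 13 erythroid and megakaryocyte markers of 4977 to 5281 CPM in SEM::mock and 6200 to 6450 CPM in SEM::EGR3. The single markers mostly went against this sum. Of the 12 tested, 4 were higher and 8 lower in SEM::EGR3, with a median log2 fold change of -0.62. EGR3 itself had between 6 and 10 counts in SEM::mock and between 4952 and 9768 in SEM::EGR3. The lines thus differed in much more than EGR3, and the part of the transgene in any difference below cannot be told apart from other differences between the lines. Total counts per library ranged from 5286115 to 6181388 in SEM::mock and from 7293092 to 15106018 in SEM::EGR3.

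Replication-dependent histone transcripts were lower in SEM::EGR3 and variant histone transcripts were mostly higher. Of the 26 replication-dependent genes with enough counts to be tested, 18 fell, 2 rose and 6 did not pass the test, with a median log2 fold change of -0.57. Of the 7 tested variants, 4 rose, 1 fell and 2 did not pass the test, with a median of 0.19. Over all 15465 tested genes, 32.0% were called lower and 36.5% higher at an adjusted p-value under 0.05 (edgeR quasi-likelihood test with Benjamini-Hochberg adjustment over all tested genes), and the median was 0.03. The libraries of both lines did not overlap for 19 of the 26 replication-dependent genes and for 5 of the 7 variants, beside 70.1% of all tested genes. A fall of at least 1 on the log2 scale was called for 6 of the 26 genes, beside 8.50% of all tested genes. In bulk RNA, fewer cells that make a transcript and less of it per cell cannot be told apart.

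**Figure D1:**
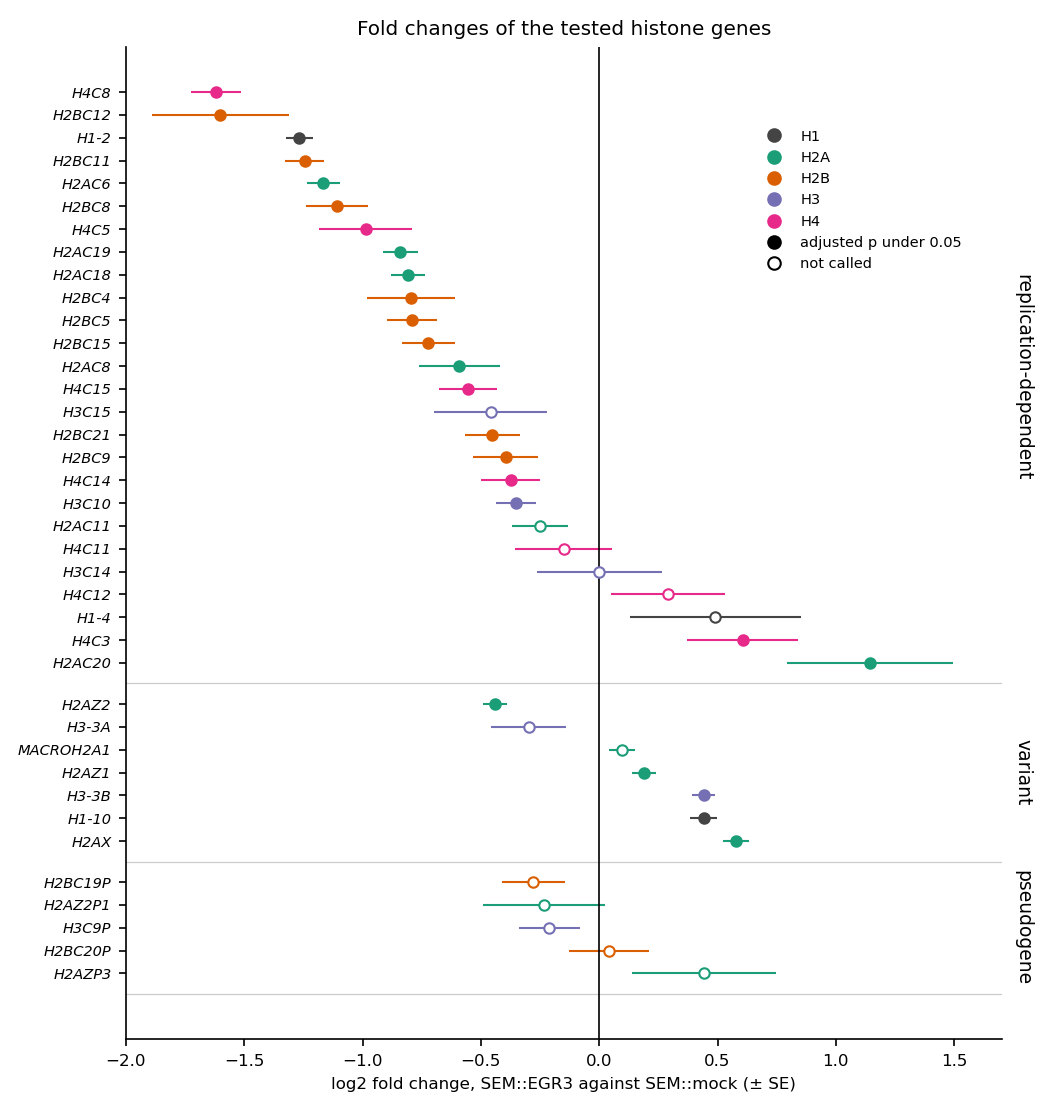
Fitted log2 fold change (x axis, SEM::EGR3 against SEM::mock, 3 libraries each) of the 38 tested histone genes, with bars for the standard error. Filled points passed the test and open points did not. The 8 H2B genes (orange) of the replication-dependent class all lie below 0, while H2AX, H1-10, H3-3B and H2AZ1 lie above it.

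Summed over all 61 replication-dependent genes, the level was 996, 996 and 1017 CPM in SEM::mock and 557, 551 and 551 CPM in SEM::EGR3, and was thus 1.81 times as high in SEM::mock (1003 ± 12.1 against 553 ± 3.54 CPM, SD, n = 3). The libraries of each line lay close together and the lines did not overlap. The sum over the 12 variants was 2855, 2897 and 2843 CPM in SEM::mock against 3317, 3276 and 3394 CPM in SEM::EGR3. The share of replication-dependent counts among the counts of both coding classes, which does not depend on normalisation, was between 25.6% and 26.3% in SEM::mock and between 14% and 14.4% in SEM::EGR3. H1-2 alone held 36.6% to 39.2% of the replication-dependent counts in SEM::mock and 26.3% to 29.9% in SEM::EGR3. Without H1-2 the sum was 623 ± 14.6 CPM in SEM::mock and 394 ± 13.8 CPM in SEM::EGR3, so that H1-2 did not carry the difference on its own.

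By family, the sum of the H1 genes was 382 ± 13.1 CPM in SEM::mock and 163 ± 9.94 CPM in SEM::EGR3, that of the H2A genes 265 ± 7.73 and 152 ± 7.59 CPM, and that of the H2B genes 184 ± 4.77 and 100.4 ± 4.58 CPM. These 3 families did not overlap between the lines. The H3 genes summed to 49.8 ± 4.43 and 42.8 ± 1.82 CPM. The H3 ranges were 44.9 to 53.4 CPM and 40.8 to 44.4 CPM, with only a narrow gap between them. The H4 genes summed to 122 ± 12.7 and 94.3 ± 17 CPM, and here the highest SEM::EGR3 library (114 CPM) was above the lowest SEM::mock library (107 CPM).

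**Figure D2:**
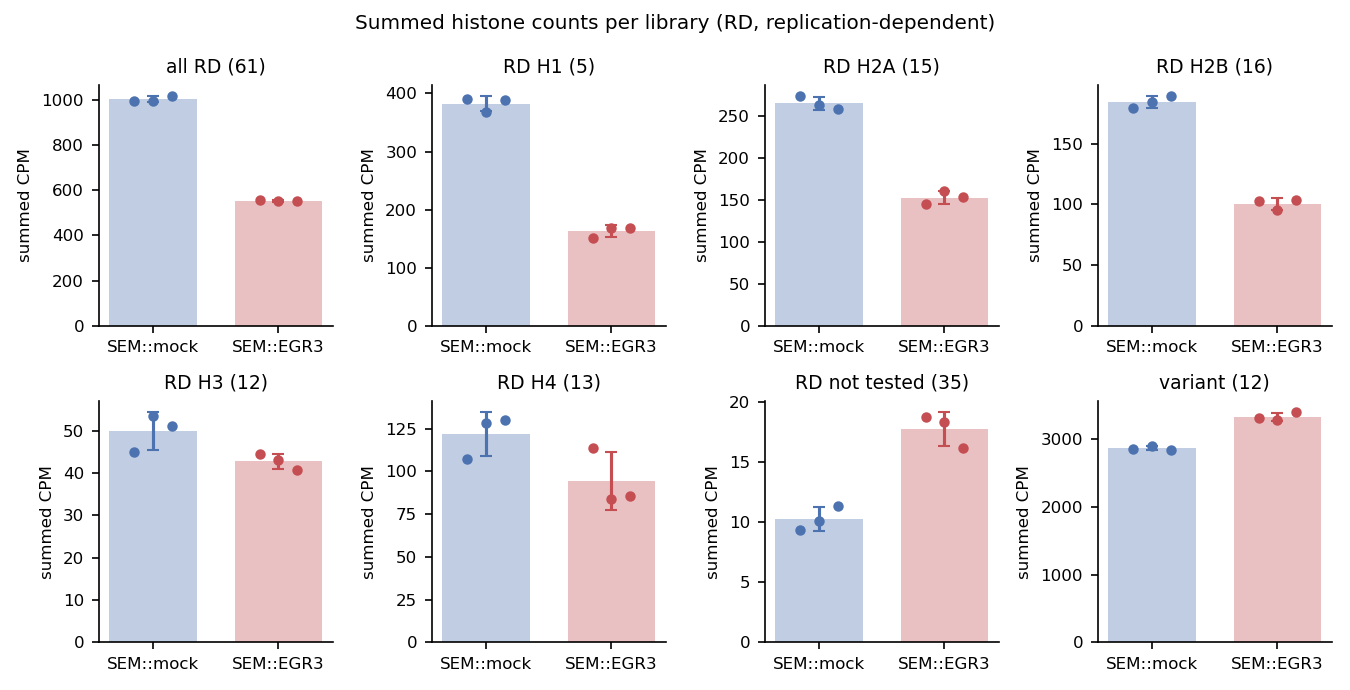
Summed CPM per library (points), mean (bars) and SD (error bars) for the replication-dependent (RD) genes, their 5 families, the RD genes with too few counts for a test, and the variants, with 3 libraries per line and axes from 0. The RD sum is near 1003 CPM in SEM::mock and 553 CPM in SEM::EGR3, while the untested RD genes and the variants go the other way.

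H1-2, a linker histone that binds the DNA between nucleosomes, had the highest level of the replication-dependent genes in this polyadenylated RNA. It was measured at 390, 364 and 386 CPM in SEM::mock and at 147, 164 and 165 CPM in SEM::EGR3. Every SEM::mock library was above every SEM::EGR3 library, and the log2 fold change was -1.27 ± 0.06 (SE, adjusted p = 7.75e-16). The other tested linker histone gene of this class, H1-4, had only 4 to 33 counts per library and did not pass the test (0.49 ± 0.36, adjusted p = 0.235).

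All 8 tested H2B genes fell, with log2 fold changes between -0.39 and -1.60. H2BC11 had 61.7, 66.3 and 68.2 CPM in SEM::mock and 29.2, 23.8 and 28.6 CPM in SEM::EGR3 (-1.24 ± 0.08, adjusted p = 1.22e-12). H2BC8 had 17.8, 20.8 and 17.8 CPM against 8.06, 9.97 and 8.73 CPM (-1.11 ± 0.13, adjusted p = 5.21e-08). H2BC12 fell the most (-1.60 ± 0.29, adjusted p = 2.99e-05), but it was a low transcript, seen 17, 25 and 19 times in SEM::mock and 17, 12 and 9 times in the more deeply sequenced SEM::EGR3. It passed the filter on low counts through its SEM::mock libraries. Its 3′ end shares 80.1% of its 50-base stretches with other genes. The part of those genes in the counts of H2BC12 was not tested. In all 3 genes the libraries of the lines were separate on the CPM scale. H2BC5 (-0.79), H2BC15 (-0.72), H2BC4 (-0.80), H2BC21 (-0.45) and H2BC9 (-0.39) fell less. The call of H2BC9 was lost without SEM::mock replicate 3 (-0.27, adjusted p = 0.115).

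**Figure D3:**
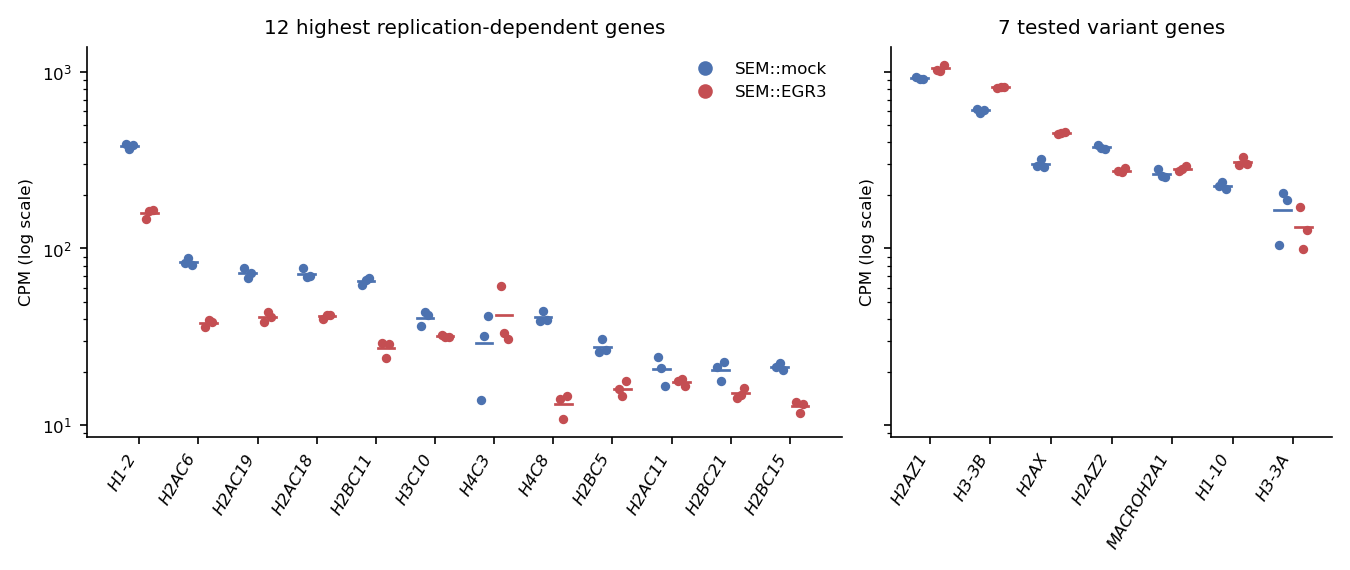
CPM per library (points, log axis) and mean (lines) for the 12 replication-dependent genes with the highest mean level and the 7 tested variants in SEM::mock (blue) and SEM::EGR3 (red). The red points of H1-2, H2AC6, H2BC11 and H4C8 lie below the blue points, those of H2AX and H3-3B lie above, and H4C3 and H3-3A show 1 library of each line far from the other two.

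Among the H2A genes, H2AC6 was measured at 83.1, 88.4 and 81.0 CPM in SEM::mock and at 35.7, 39.3 and 38.4 CPM in SEM::EGR3 (-1.17 ± 0.07, adjusted p = 1.97e-13). H2AC18 and H2AC19 had nearly the same values (72 ± 4.69 and 72.6 ± 4.79 CPM in SEM::mock, 41.3 ± 1.35 and 40.9 ± 2.60 CPM in SEM::EGR3). These are copies of one another, and every 50-base stretch in the last 300 bases of the one also occurs in the other. Their counts are therefore not independent, and summed as 1 gene they fell by 0.82 on the log2 scale (adjusted p = 2.10e-11). H2AC8 also fell (-0.59 ± 0.17, adjusted p = 0.00387), although SEM::mock replicate 1 (7.95 CPM) lay within the range of SEM::EGR3. H2AC11 did not pass the test (-0.25 ± 0.12, adjusted p = 0.0661) but did so without SEM::mock replicate 3 (-0.39, adjusted p = 0.00699). H2AC20 went the other way, since SEM::mock gave 4, 7 and 6 counts and SEM::EGR3 30, 21 and 21 (1.15 ± 0.35, adjusted p = 0.00579). It passed the filter through its SEM::EGR3 libraries. Of the 50-base stretches at its 3′ end, 39.8% also occur in other genes.

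H4C8 showed the largest fall among the tested genes of the class (-1.62 ± 0.11, adjusted p = 1.00e-12). It went from 38.9, 44.4 and 39.2 CPM in SEM::mock to 14, 10.8 and 14.5 CPM in SEM::EGR3. H4C5 fell from 7.71 ± 0.716 to 3.75 ± 0.803 CPM (-0.99 ± 0.20, adjusted p = 8.96e-05). H4C14 (-0.37) and H4C15 (-0.55) fell as well, and they too share every 50-base stretch of their 3′ ends. The call of H4C14 alone was lost when replicate 1 of SEM::mock (-0.28, adjusted p = 0.0801) or of SEM::EGR3 (-0.30, adjusted p = 0.0705) was left out, and it was not made by DESeq2 (-0.37, adjusted p = 0.05004), whereas the sum of both copies fell with an adjusted p of 0.000109. H4C11 and H4C12, which share most of their 3′ ends with each other, did not pass the test (-0.15 ± 0.21 and 0.29 ± 0.24).

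H4C3 was called higher, but its replicates were far apart. It had 13.8, 32.0 and 41.4 CPM in SEM::mock and 61.5, 33 and 30.7 CPM in SEM::EGR3, so that the ranges overlapped and the difference lay in replicate 1 of each line (0.61 ± 0.23, adjusted p = 0.0245). When replicate 1 of SEM::mock was left out the log2 fold change was 0.25 (adjusted p = 0.271), when that of SEM::EGR3 was left out it was 0.15 (adjusted p = 0.549), and with either left out H2AC20 was the 1 gene of the class still called higher. The variant H3-3A and the pseudogene H3C9P showed a spread of the same shape.

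Of the H3 genes only H3C10 was called, with 36.2, 43.4 and 42.0 CPM in SEM::mock and 32.3, 31.3 and 31.5 CPM in SEM::EGR3 (-0.35 ± 0.08, adjusted p = 0.000727). H3C14 and H3C15 are a pair of copies with 16 to 56 counts per library. Taken as 1 gene they had a log2 fold change of -0.25 ± 0.18 (adjusted p = 0.224).

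The other 35 replication-dependent genes had at most 28 counts in any library and were not tested. At this depth a change of a single gene was hardly measurable, since 25 of them had no more than 3 counts in each SEM::mock library. Their sum went against the rest of the class, with 9.37, 10.0 and 11.4 CPM in SEM::mock and 18.7, 18.3 and 16.1 CPM in SEM::EGR3. Of the 35, 25 had a higher mean CPM in SEM::EGR3 and 10 a lower one. H1-5, for instance, was seen 0, 2 and 1 times in SEM::mock against 15, 14 and 8 times in SEM::EGR3, and H2AC14 1, 0 and 1 against 16, 8 and 8 times. In 6 genes (H2BC3, H2BC10, H3C1, H3C3, H3C8 and H4C6) no SEM::mock library had a count and each SEM::EGR3 library had at least 1, the most being 12 counts of H3C3 in SEM::EGR3 replicate 1. The SEM::mock libraries were smaller (5286115 to 6181388 total counts, against 7293092 to 15106018 in SEM::EGR3), so a count of 0 is more likely there for any low gene. Neither these 6 genes nor the 25 and 10 above were set beside the share of all genes with so few counts. When all genes with a count were fitted, 7 of the 35 were called higher (H1-3, H1-5, H2AC14, H3C3, H3C6, H3C8 and H4C6) and 1 lower (H2BC17), beside 6828 (20%) and 5140 (15.1%) of all 34056 genes in that fit, whose median log2 fold change was 0.22. The share called higher was thus that of all genes. The 12 genes with the highest levels held between 81.2% and 87.5% of the replication-dependent counts of a library, and 10 of them fell.

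The levels of the replication-dependent genes were set beside their annotated 3′ ends. Of the 20 genes whose GENCODE 29 transcript runs at least 100 bases past the stem-loop, 14 had enough counts for the test. Of 8 genes ending closer to the stem-loop, 5 did, and of 31 without the stem-loop in the transcript, 7 did. In 28 of these 31 the annotated transcript stops at the stop codon, so that a read from the 3′ end of a longer transcript would lie outside of it. Even so, 4 of the 28 had enough counts for the test, among them H1-2 at a mean of 269 CPM. The median level was 10.2, 6.93 and 0.340 CPM in the 3 groups. Of the tested genes, 11 of 14, 4 of 5 and 3 of 7 fell, and 0, 0 and 2 rose, beside 32.0% lower and 36.5% higher over all tested genes. The first group holds the copies H3C14 with H3C15 and H4C14 with H4C15, and the second H2AC18 with H2AC19. Counts within these pairs are not independent, and the difference between the groups was not tested. H1-2, H2BC11, H2BC12, H2AC20 and H4C3 belong to the last group. The annotation release used for counting is not given in the sources used here. The table holds identifiers of H3C2 and H3C3 that GENCODE 29 lacks, so that the gene models behind the counts may differ from these. The part of the gene models in the low counts was not tested.

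**Figure D4:**
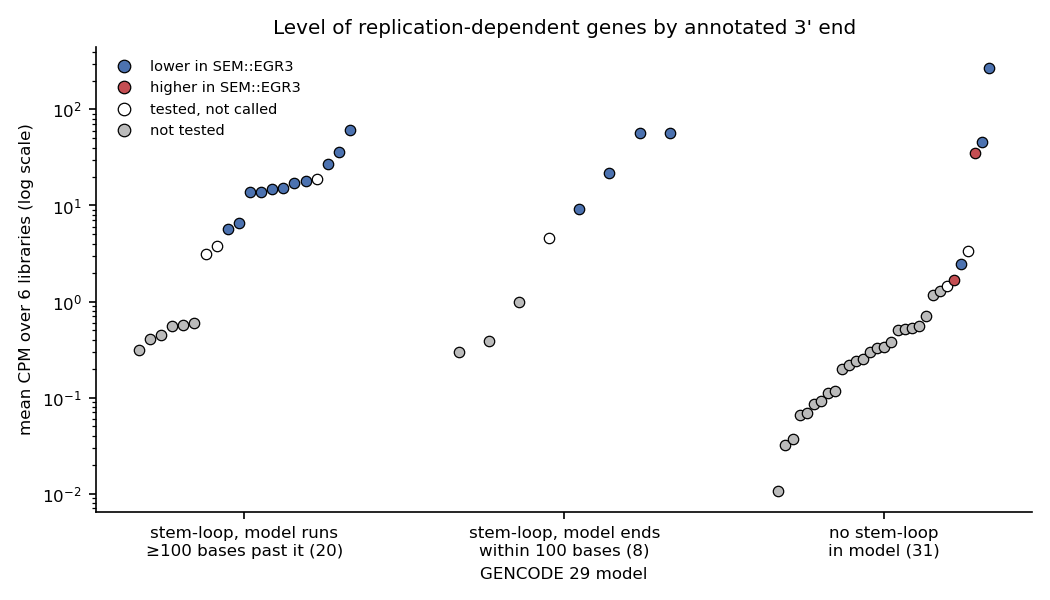
Mean CPM over all 6 libraries (log axis) of 59 replication-dependent genes, 1 point per gene, grouped by the 3′ end of the GENCODE 29 transcript and coloured by the result of the test. Most genes without a stem-loop in the transcript lie near or below 1 CPM and were not tested, with H1-2, at a mean of 269 CPM, as the main exception.

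Among the variants, H2AX, which is phosphorylated at DNA breaks, rose the most. It was measured at 295, 323 and 290 CPM in SEM::mock and at 446, 454 and 456 CPM in SEM::EGR3 (0.58 ± 0.05, adjusted p = 7.29e-10). H3-3B, one of 2 genes for the replacement histone H3.3, had 619, 590 and 613 CPM against 817, 828 and 829 CPM (0.44 ± 0.05, adjusted p = 1.59e-08). The linker histone variant H1-10 had 225, 238 and 219 CPM against 298, 329 and 302 CPM (0.44 ± 0.06, adjusted p = 1.87e-07). None of these 3 genes overlapped between the lines.

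The 2 genes for H2A.Z, a variant found around transcription starts, moved in opposite directions. H2AZ1 was measured at 942, 911 and 912 CPM in SEM::mock and at 1035, 1013 and 1103 CPM in SEM::EGR3, a small difference outside the spread of the replicates (0.19 ± 0.05, adjusted p = 0.00173). H2AZ2 fell from 387, 371 and 369 CPM to 275, 270 and 285 CPM (-0.44 ± 0.05, adjusted p = 4.64e-08).

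MACROH2A1, a large variant linked to silent chromatin, had 264 ± 15.6 CPM in SEM::mock and 283 ± 9.35 CPM in SEM::EGR3 (0.10 ± 0.06, adjusted p = 0.124). H3-3A, the other H3.3 gene, had 105, 206 and 188 CPM in SEM::mock and 172, 99.7 and 127 CPM in SEM::EGR3 (-0.30 ± 0.16, adjusted p = 0.0976). As with H4C3, replicate 1 was the lowest of SEM::mock and the highest of SEM::EGR3. H3-3A was called lower when replicate 1 of SEM::mock (-0.56, adjusted p = 0.000200) or of SEM::EGR3 (-0.54, adjusted p = 0.00440) was left out, in either case making 2 variants that fell. H1-7, H1-8, H2AJ and MACROH2A2 had at most 2 counts in any library and were not tested.

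None of the 5 tested pseudogenes was called by edgeR, 1 had an unadjusted p-value under 0.05, and DESeq2 called 0. H3C9P, the highest of them, had 62.7, 98.0 and 104 CPM in SEM::mock and 92.6, 61.7 and 69.6 CPM in SEM::EGR3 (-0.21 ± 0.13, adjusted p = 0.151). Of the 50-base stretches at its 3′ end, 16.7% also occur in H3-3A. It was called lower when replicate 1 of SEM::mock (-0.42, adjusted p = 0.00110) or of SEM::EGR3 (-0.42, adjusted p = 0.00652) was left out, and in the edgeR fit without a filter on low counts (-0.22, adjusted p = 0.00799). H2BC19P (-0.28 ± 0.13) was called only without one of the same libraries (adjusted p = 0.0493 and 0.0273), and H2BC20P (0.04 ± 0.17), H2AZ2P1 (-0.23 ± 0.26) and H2AZP3 (0.44 ± 0.31) did not pass the test. The other 11 members of this class had at most 18 counts in any library.

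The promoters of the family were read from RefSeq (GRCh38.p14), which holds 68 of the members. The stretches of 150 bases before the start are shown for 3 H2B genes and the H2A gene that fell by more than 1 on the log2 scale, because they share the elements of histone promoters. The TATA box TATAAA, the CCAAT box and the octamer ATTTGCAT, on either strand, are in capitals.

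H2BC11 (chr6:27132796-27132945, minus strand): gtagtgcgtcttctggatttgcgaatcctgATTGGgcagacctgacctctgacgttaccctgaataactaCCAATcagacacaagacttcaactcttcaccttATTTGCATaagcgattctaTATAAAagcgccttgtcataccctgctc
H2BC12 (chr6:27146859-27147008, minus strand): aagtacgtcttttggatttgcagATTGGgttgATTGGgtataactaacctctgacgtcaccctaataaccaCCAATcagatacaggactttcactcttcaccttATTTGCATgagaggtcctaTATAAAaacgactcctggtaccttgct
H2BC8 (chr6:26216689-26216838, minus strand): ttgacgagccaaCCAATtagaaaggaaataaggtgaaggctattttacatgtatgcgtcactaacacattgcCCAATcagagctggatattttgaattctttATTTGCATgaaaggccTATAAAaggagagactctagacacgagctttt
H2AC6 (chr6:26124022-26124171, plus strand): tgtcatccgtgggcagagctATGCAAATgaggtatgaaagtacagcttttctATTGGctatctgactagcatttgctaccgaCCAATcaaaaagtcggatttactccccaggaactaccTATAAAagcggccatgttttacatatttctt

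In the 3 H2B genes the octamer starts 46 to 48 bases before the start and the nearest TATA box 27 to 32 bases before it. Over windows of 250 bases before to 50 bases after the start, the octamer occurred in 13 of 16 H2B promoters and 10 of 14 H2A promoters, in none of the 26 H1, H3 and H4 promoters, and in 1.77% of all 35116 promoters. TATAAA occurred in 67.9% of the replication-dependent promoters and in 11.5% of all promoters, and CCAAT in 85.7% and 34.6%. The octamer was present in 8 of the 18 genes that fell (44.4%) and in 13 of 31 that could not be tested (41.9%). The untested genes have no fold change, so these shares cannot say whether the octamer goes with a fall. H4C8 and H1-2 fell by more than 1 on the log2 scale too and are not shown. The window of H4C8 held none of the 3 elements in these letters, and that of H1-2 held only the CCAAT box. The EGR motif, written as GCGTGGGCG or GCGGGGGCG, was in none of the 56 replication-dependent and 11 variant promoters and in 5.77% of all promoters.

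The genes that GENCODE 29 holds were also counted apart by cluster, 48 in the large histone cluster on chromosome 6 (26017085 to 27893843) and 11 in the smaller cluster on chromosome 1 (149782689 to 149887916). In the former, 13 of 18 tested genes fell and 1 rose (median -0.76), and in the latter 5 of 8 fell and 1 rose (median -0.45). Over all tested genes, 32.0% were called lower and 36.5% higher. The 8 genes of the latter include the copies H2AC18 with H2AC19, H4C14 with H4C15 and H3C14 with H3C15. Counts within such a pair are not independent. Genes of both clusters are among those that fell, and the difference between the clusters was not tested.

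The genes that transcribe and process these mRNAs did not move in 1 direction. Of 18 tested genes of stem-loop processing and histone transcription, 5 rose and 8 fell, with a median log2 fold change of -0.10. These were 27.8% and 44.4% of the list, beside 36.5% and 32.0% of all tested genes. SLBP, the stem-loop binding protein, had 108, 107 and 110 CPM in SEM::mock and 109, 95.9 and 114 CPM in SEM::EGR3, with overlapping ranges (-0.02 ± 0.06, adjusted p = 0.788). NPAT, the coactivator of histone genes, fell slightly, from 27.6, 24.0 and 23.5 CPM to 20.7, 21.8 and 17.8 CPM (-0.32 ± 0.11, adjusted p = 0.0106). The cyclins of the kinase that activates NPAT went apart, since CCNE1 fell (-0.99 ± 0.08, adjusted p = 1.45e-10) and CCNE2 rose (0.83 ± 0.13, adjusted p = 2.74e-06). CDK2 fell by 0.56 and the U7 snRNP subunit LSM10 by 0.55 on the log2 scale. POU2F1, which binds the octamer, rose by 0.61 and the cap-binding subunit NCBP2 by 0.60.

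Of 8 genes of histone mRNA decay, 2 rose (XRN1, 0.47, and TUT7, 0.36) and 3 fell (TUT4, -0.37, LSM1, -0.31, and DCP2, -0.21), with a median of -0.04. These were 25% and 37.5% of the list, beside 36.5% and 32.0% of all tested genes. Of 18 chaperones that deliver new histones during replication, 6 rose and 5 fell (33.3% and 27.8%), near the shares of all tested genes. Among them the replicative helicase subunit MCM2 rose by 0.61 and the H3 and H4 chaperone NASP fell by 0.55 on the log2 scale. Of 17 genes that deposit or remove variants, 5 rose and 4 fell (29.4% and 23.5%). HIRA, which deposits H3.3, had 106, 118 and 101 CPM in SEM::mock and 50.6, 55.4 and 60.6 CPM in SEM::EGR3 (-0.97 ± 0.07, adjusted p = 1.76e-11), and its partner UBN1 fell by 0.39. ANP32E, which removes H2A.Z, rose by 0.34. The centromeric histone H3 gene CENPA fell by 0.27 (adjusted p = 0.0142).

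Genes of the cell cycle were set beside these values, since replication-dependent histones are made in S phase. Of 19 S phase genes, 7 rose and 7 fell (36.8% each), near the 36.5% and 32.0% of all tested genes. Their median was 0.00, and their summed level was 4243 ± 45.8 CPM in SEM::mock and 4078 ± 12.3 CPM in SEM::EGR3. UHRF1 rose the most (1.94 ± 0.12, adjusted p = 2.36e-13) and CDC45 fell the most (-0.91 ± 0.05, adjusted p = 8.69e-14). Of 12 mitosis genes, 7 rose and 2 fell (58.3% and 16.7%), with a median of 0.14 and a summed level of 1445 ± 41.3 against 1692 ± 40.9 CPM. UBE2C was nearly at 0 in SEM::mock (4 to 6 counts) and at 77.6 to 83.9 CPM in SEM::EGR3. The S phase sum was thus 1.04 times as high in SEM::mock as in SEM::EGR3, beside 1.81 times for the replication-dependent histones. The part of the cell cycle in the histone values was not tested.

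**Figure D5:**
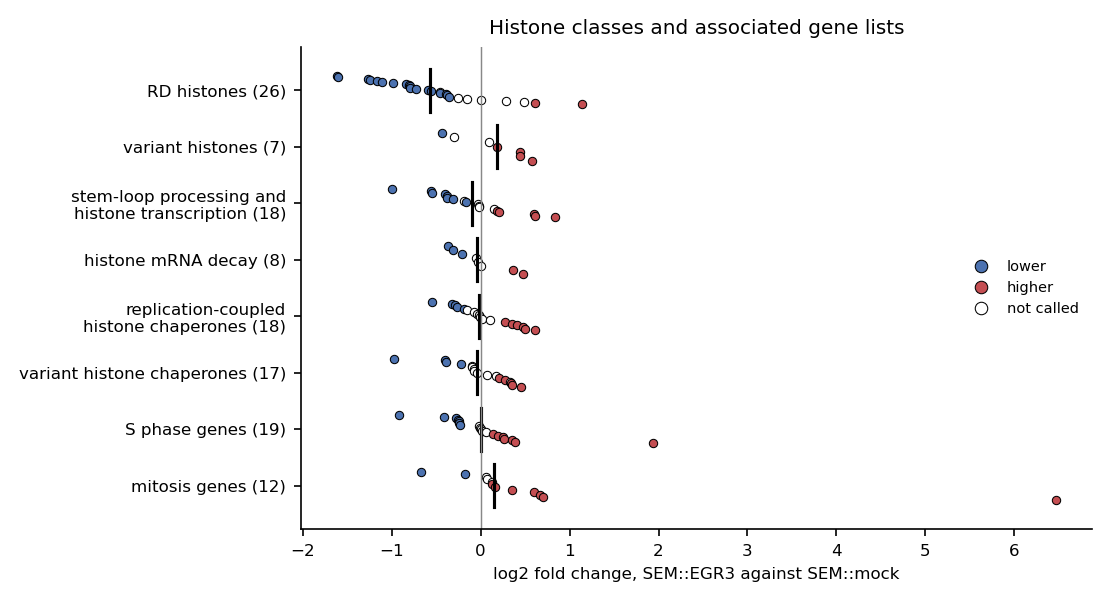
Fitted log2 fold changes (x axis, SEM::EGR3 against SEM::mock) of the tested genes of both histone classes and of 6 associated lists, 1 point per gene, with the number of genes in brackets and the median as a vertical line. The median of the replication-dependent (RD) histones is at -0.57, and those of the 6 lists lie between -0.10 and 0.14.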

How the data were processed

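MACE-Seq had been performed on polyadenylated RNA of 3 biological replicates each of SEM::mock and SEM::EGR3, grouped by their labels. The submitters' processing notes name bcl2fastq, Bowtie2, HTSeq and the build GRCh38. The versions, the annotation release and the use of strand are not given in the sources used here. Counts of overlapping genes, such as H3C14 with H4C14 or H2BC19P with H2BC20P, and of near-identical copies are thus uncertain. The counts deposited by the authors are whole numbers without normalization, and these were analysed. The deposited CPM values, named TPM in the table, equal the counts times 1 constant per library and were used only for this check. The column headings spell EGR3 as ERG3. The authors' columns of size-factor normalized values, fold changes and p-values of their own DESeq2 comparison were not used. In all, 0 further columns of per-sample values were left out.

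Histone genes and lists of associated genes and markers were chosen with earlier results of these data known. ELANE and PF4 of the marker lists were not analysed here, and single values of some members are not reported here. With edgeR 4.0.16 (R 4.3.3), genes were selected by filterByExpr, scaled by TMM and compared with glmQLFit and glmQLFTest over all 6 libraries (15465 genes, Benjamini-Hochberg adjustment, threshold 0.05). CPM in the text are counts per 1000000 with TMM library sizes. The standard error is the log2 fold change divided by the square root of F. The procedure was tested on simulated data. Named with values are each tested variant, the 12 replication-dependent genes with the highest level, the 5 highest and 5 lowest of those called that averaged 20 counts or more in the higher line, the tested pseudogenes, EGR3, SLBP and NPAT, and up to 3 genes per direction and list. Further members were named after their values were seen, among them those with too few counts for the test. The myeloid markers (3 tested, 1 higher, 2 lower) and T cell markers (3 tested, 1 higher, 2 lower) served as checks only.

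Stem-loops and 3′ ends were searched in GENCODE 29 (GRCh38) transcripts and promoter motifs in RefSeq (GRCh38.p14) with Python 3.11.15. The alternatives were no normalization factors, upper-quartile factors, DESeq2 1.42.0, no filter, a minimum of 10 counts per gene and library, a block for the replicate number, leaving out each library, a minimum absolute log2 fold change of 1 and, chosen after seeing the data, the sum of each pair of copies. Low counts are known less precisely in SEM::mock, where the libraries are smaller.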

Additional observations from a re-analysis of the deposited data

How the results depend on the processing

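The number of replication-dependent genes that fell was between 16 and 19 under the alternatives, and 6 when a change of 1 or more on the log2 scale was asked for. Of these 18 genes, 16 remained called in every setting that tested them. The number that rose (2) was 1 with DESeq2, 1 with at least 10 counts in every library, 1 with that minimum change, 9 without a filter, where 34056 genes were fitted, and 1 to 3 when leaving out 1 library. H4C3 (adjusted p = 0.414) and H4C14 (adjusted p = 0.05004) were not called by DESeq2. Without a filter the median of the class was 0.05 instead of -0.57, as the low genes entered it. The number of variants that rose was 4 or 5, and 0 with that minimum change. The number that fell was 2 without a filter, 0 with that minimum change, and 1 to 2 when leaving out 1 library. MACROH2A1 was called higher without normalization factors (0.17) and with at least 10 counts in every library (0.15). Without normalization factors the median of all genes moved from 0.03 to 0.11, and 6304 genes were called higher and 4309 lower, instead of 5640 and 4954.

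Values near 0 changed sign. H3C14 was at -0.0022 without a filter, at -0.25 with its copy added, and between -0.14 and 0.11 when leaving out 1 library. H2BC20P was between -0.078 and 0.12 when leaving out 1 library. Across 38 tested members and all alternatives, 459 of 484 values kept direction and call, 8 lost the call, 11 gained it and 6 changed sign.

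Replicate numbers did not pair the libraries, as deviations of libraries with the same number correlated at -0.12, -0.08 and -0.04 over 15465 genes. With the replicate block, 18 replication-dependent genes fell and 1 rose, since H4C3 lost its call (adjusted p = 0.0900), and 4 variants rose and 1 fell. The depth limits what can be said of the 35 untested replication-dependent genes.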
